A study of Homo sapiens with 2 samples.

Results

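Among the 6373 peaks of the Flag chromatin immunoprecipitation (ChIP), 252 lay between genes but within 20 kb of a transcription start, and they are called near intergenic peaks here. They were chosen by the authors' deposited annotation alone, as rows classed as distal intergenic whose absolute distance to the nearest annotated start was at most 20000 bp. Since every peak within 3 kb of a start is classed as promoter, their distances ran from 3014 to 19973 bp. They made up 3.95% of all peaks (exact Clopper-Pearson 95% interval 3.49 to 4.46) and 40.2% of the 627 distal intergenic peaks. They were assigned to 244 genes on 23 chromosomes and covered 126.9 kb.

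The series holds a Flag ChIP library and an input library of unprecipitated chromatin, 1 of each. Both were made from PLC/PRF/5 cells (a line derived from a human liver tumour) carrying a lentivirus for overexpression of ZFP64, so both libraries share the transgene. With no replicate, and no precipitation from untagged cells analysed here, factor-bound sites and nonspecific antibody signal cannot be told apart. Coordinates are those of the deposited table, on hg38. Intervals on fragments cover counting error only. Those on shares and medians treat peaks as independent draws, and none covers variation between libraries. Peaks are not replicates, and no test between conditions was possible. Expression was not measured in these libraries, so the liver cell label could not be set against its markers.

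ZFP64 is a nuclear protein with C2H2 zinc fingers, a structure that many transcription factors use to read DNA. In leukaemia driven by rearranged KMT2A it is known for sustaining transcription from the KMT2A promoter. Sites between genes and some distance from a start can be enhancers, which act on a promoter across intervening DNA, or promoters of transcripts that an annotation does not list. Each peak is paired here with the gene of the nearest annotated start, which need not be the gene it acts on.

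The deposited class holds only for the gene models behind it. In a RefSeq gene table of the same assembly (GRCh38.p14), 56 of the 252 summits (22.2%, 17.2 to 27.9) fell inside the span of a gene, against 110 of 375 summits (29.3%, 24.8 to 34.2) of intergenic peaks beyond 20 kb. Of the 252 summits, 29 lay in the span of a long noncoding RNA gene, 18 in that of a protein-coding gene and 9 in that of a pseudogene. RefSeq promoter windows, which run from 250 bases before a start to 50 after it, were overlapped by 11 near intergenic peaks. The start itself lay under 10 of 241 near intergenic peaks (4.15%, 2.01 to 7.50), against 13 of 351 far ones (3.70%, 1.99 to 6.25). Within 3 kb of a RefSeq start lay 25 of the 241 (10.4%, 6.83 to 14.9), against 39 of 351 far ones (11.1%, 8.02 to 14.9). The share over peaks of all classes outside promoters was 8.75%.

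The windows with at least 200 bases inside a near intergenic peak are printed below because they are RefSeq starts under peaks that the deposited annotation classed as intergenic. They are RefSeq sequences of GRCh38.p14, 5′ to 3′ on the gene's strand, and capitals mark the bases inside the peak. The TNS1 window lies at chr2:218010226-218010525 (minus strand), the DMBX1 window at chr1:46489586-46489885 (plus strand), and that of LOC105374777 at chr2:64768148-64768447 (minus strand). LOC101928499 has a window at chr15:52805696-52805995, MIR550A3HG at chr7:29685089-29685388, PPP5C-AS1 at chr19:46404189-46404488 and LOC124903972 at chr17:32007658-32007957, each on the minus strand.
TNS1: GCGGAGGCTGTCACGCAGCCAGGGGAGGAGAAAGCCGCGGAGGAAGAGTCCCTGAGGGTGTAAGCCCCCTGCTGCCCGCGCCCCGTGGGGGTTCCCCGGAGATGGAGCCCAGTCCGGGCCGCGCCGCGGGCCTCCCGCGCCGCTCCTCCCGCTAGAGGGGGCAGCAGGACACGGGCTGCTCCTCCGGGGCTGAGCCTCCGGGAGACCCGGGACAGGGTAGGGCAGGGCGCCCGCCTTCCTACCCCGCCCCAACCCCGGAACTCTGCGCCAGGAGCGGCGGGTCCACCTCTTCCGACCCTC
DMBX1: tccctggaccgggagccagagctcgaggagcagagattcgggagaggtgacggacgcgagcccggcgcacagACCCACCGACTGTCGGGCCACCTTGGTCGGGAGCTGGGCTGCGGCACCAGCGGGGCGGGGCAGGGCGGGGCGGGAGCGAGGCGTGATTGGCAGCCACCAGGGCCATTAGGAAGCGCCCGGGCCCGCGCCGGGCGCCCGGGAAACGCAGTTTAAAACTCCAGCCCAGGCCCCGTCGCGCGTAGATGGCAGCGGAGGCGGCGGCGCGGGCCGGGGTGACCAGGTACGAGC
LOC101928499: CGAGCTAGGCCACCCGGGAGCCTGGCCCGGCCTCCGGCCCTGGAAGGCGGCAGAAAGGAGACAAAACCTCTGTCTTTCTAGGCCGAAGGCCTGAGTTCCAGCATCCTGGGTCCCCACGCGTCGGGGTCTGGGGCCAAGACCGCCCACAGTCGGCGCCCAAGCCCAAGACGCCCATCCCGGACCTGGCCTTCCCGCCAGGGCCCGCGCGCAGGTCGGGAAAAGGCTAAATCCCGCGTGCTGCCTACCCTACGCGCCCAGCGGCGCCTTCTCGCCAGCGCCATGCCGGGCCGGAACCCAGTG
LOC105374777: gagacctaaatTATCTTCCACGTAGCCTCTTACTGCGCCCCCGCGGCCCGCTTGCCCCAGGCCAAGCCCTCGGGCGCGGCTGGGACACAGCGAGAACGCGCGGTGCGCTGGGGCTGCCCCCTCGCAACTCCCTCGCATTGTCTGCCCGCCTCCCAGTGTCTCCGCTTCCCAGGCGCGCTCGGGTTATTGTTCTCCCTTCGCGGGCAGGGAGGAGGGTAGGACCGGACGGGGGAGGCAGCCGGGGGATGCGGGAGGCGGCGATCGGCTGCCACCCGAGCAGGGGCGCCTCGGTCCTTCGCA
MIR550A3HG: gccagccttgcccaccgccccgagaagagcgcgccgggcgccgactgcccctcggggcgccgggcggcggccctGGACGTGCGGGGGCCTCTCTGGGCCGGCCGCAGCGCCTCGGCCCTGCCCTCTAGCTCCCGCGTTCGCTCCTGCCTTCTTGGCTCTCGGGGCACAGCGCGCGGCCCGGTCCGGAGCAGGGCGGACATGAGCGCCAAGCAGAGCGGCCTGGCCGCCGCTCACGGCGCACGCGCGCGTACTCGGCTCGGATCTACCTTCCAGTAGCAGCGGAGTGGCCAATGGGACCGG
PPP5C-AS1: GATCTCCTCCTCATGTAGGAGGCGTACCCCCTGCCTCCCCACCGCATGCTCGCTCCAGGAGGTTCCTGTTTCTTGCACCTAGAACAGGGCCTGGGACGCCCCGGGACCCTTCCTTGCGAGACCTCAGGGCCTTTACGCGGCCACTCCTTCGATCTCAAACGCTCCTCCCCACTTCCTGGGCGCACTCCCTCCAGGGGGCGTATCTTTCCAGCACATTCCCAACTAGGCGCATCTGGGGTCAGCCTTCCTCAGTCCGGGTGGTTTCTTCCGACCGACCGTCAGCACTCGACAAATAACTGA
LOC124903972: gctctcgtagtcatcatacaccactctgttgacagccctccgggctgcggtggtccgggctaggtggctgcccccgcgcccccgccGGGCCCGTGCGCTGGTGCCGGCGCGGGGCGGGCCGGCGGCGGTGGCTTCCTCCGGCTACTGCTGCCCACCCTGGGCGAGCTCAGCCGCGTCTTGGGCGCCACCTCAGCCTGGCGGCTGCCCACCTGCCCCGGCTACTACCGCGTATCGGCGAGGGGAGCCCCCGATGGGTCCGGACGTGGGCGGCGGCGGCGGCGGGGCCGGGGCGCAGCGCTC

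The 7 windows were rich in G and C, at 61.3% to 77.3% (median 73.7%), and held 18 to 42 CpG dinucleotides (median 33). Over all 35116 RefSeq windows in the table the median was 58.7% (quartiles 47% to 68%) with 14 CpG dinucleotides (4 to 28). TNS1 encodes tensin, which links integrins to actin. Its peak, on chromosome 2 from 218010131 to 218010698, held the whole window and had its summit there, with a fold of 8.79, whereas the deposited distance to TNS1 was -7136 bp. DMBX1, a homeobox gene of brain development, had near intergenic peaks with folds of 8.13 and 6.48, deposited at -16884 and -15876 bp. The peak with the higher fold covered the RefSeq start of DMBX1, and the other lay 878 bp from it. The remaining windows printed belong to genes other than the assigned one, apart from the LRRC37B peak (fold 4.39), which also reached the RefSeq start of LRRC37B. The long noncoding RNA gene LOC101928499 lay under the ONECUT1 peak, LOC105374777 under the SERTAD2 peak (8.0) and PPP5C-AS1 under the CCDC8 peak (5.24).

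Near intergenic peaks were weaker than promoter peaks and close in fold to the other peaks away from starts. Fold here is the ratio the authors deposited for each peak, signal of the precipitated library divided by the expected background. The median was 6.03 (quartiles 4.69 to 8.47) for near intergenic peaks, against 5.69 (4.53 to 7.64) for the 375 far intergenic peaks, 5.76 (4.55 to 7.70) for the 666 intron peaks and 6.98 (5.05 to 11.7) for the 4905 promoter peaks. The 95% interval of the near intergenic median, from order statistics, was 5.57 to 6.40. It overlapped those of far intergenic peaks (5.39 to 6.03) and intron peaks (5.57 to 6.02) but not that of promoter peaks (6.84 to 7.17). Of the near intergenic peaks, 47 had a fold of 10 or more (18.7%, 14.04 to 24.0), against a share of 27.6% over all peaks. Far intergenic peaks reached it in 14.1% (10.8 to 18.1) and intron peaks in 12.6% (10.2 to 15.4). A −log10 q-value of at least 10 was reached by 95 near intergenic peaks (37.7%, 31.7 to 44.0), against 49.8% over all peaks.

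In width they stood between the other distal peaks and promoter peaks. The median width was 425 bp (interval 396 to 455) for near intergenic peaks, against 374 bp (358 to 394) for far intergenic, 366.5 bp (357 to 377) for intron and 573 bp (561 to 586) for promoter peaks. The intervals of the near intergenic peaks and of each other class did not overlap, but 396 lay close to the 394 of far intergenic peaks. With summits in RefSeq gene spans left out, the near intergenic interval was 374 to 446 bp. With a distance limit of 10 kb it was 387 to 477 bp. Both reached below 394 bp, so the separation from far intergenic peaks depended on the setting. The other classes were not recomputed for these settings. Among the 252, 14 were at least 1000 bp wide (5.56%, 3.07 to 9.15), against 13 of the far intergenic peaks (3.47%, 1.86 to 5.86) and 8 of the intron peaks (1.20%, 0.520 to 2.35). The share at that width was 22.0% of promoter peaks and 17.6% of all peaks. The widest near intergenic peaks were those of MIR183 (2417 bp), CDKN2C (2031 bp) and DHX37 (1545 bp).

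**Figure D1:**
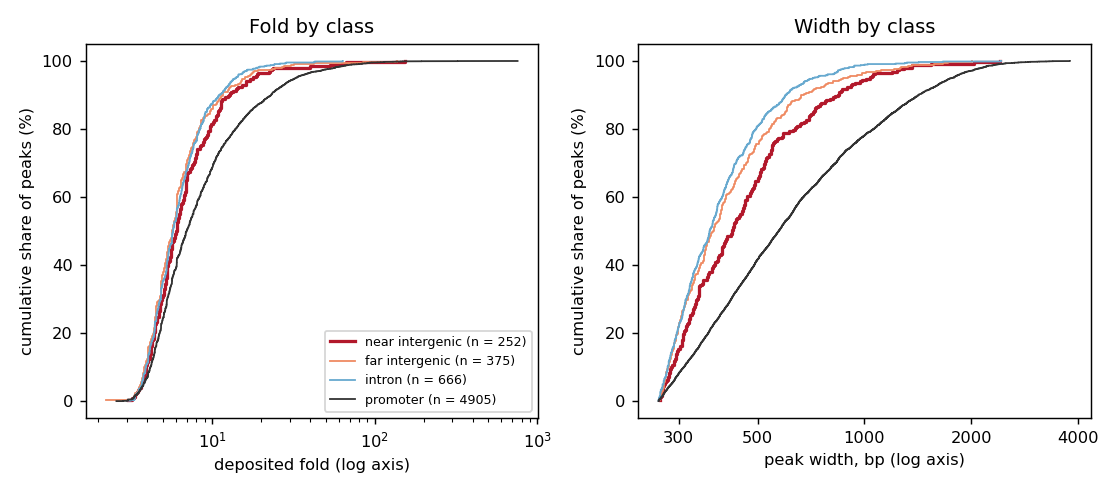
Cumulative share of peaks (percent) by deposited fold (left, log axis) and by width in bp (right, log axis) for near intergenic, far intergenic, intron and promoter peaks. The near intergenic curve runs close to the other distal classes in fold (median 6.03) and lies between them and promoters in width (median 425 bp).

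The counts behind a typical near intergenic peak were small. Deposited fold and p-value together gave a whole number of ChIP fragments and a background at the summit for 249 of the 252. The 3 left out, SP9, MIR183 and FKBP9, had p-values deposited as 0 and ranked 1, 2 and 4 by fold. Among the 249 the median was 17 fragments (quartiles 13 to 24, range 8 to 191) over a background of 1.96. The median over promoter peaks was 21 fragments over 2.08. The background exceeded 2 times the median of all peaks at 2 of the 249 near intergenic peaks (0.803%, 0.0974 to 2.87), against 137 of 4830 promoter peaks (2.84%, 2.39 to 3.34). The higher of these was at a gene listed by identifier only (33 fragments over 7.87), and the other at ID1 (79 over 5.25). Across the 252 peaks, Spearman's rho was 0.579 between fold and width and -0.0888 between fold and distance to the start, as a description of peaks from 1 library.

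**Figure D2:**
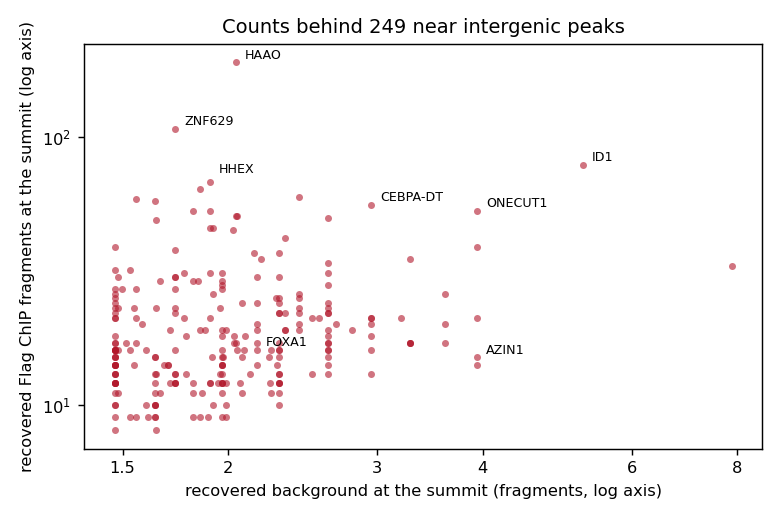
Recovered Flag ChIP fragments at the summit against recovered background at the summit (both in fragments, log axes) for 249 near intergenic peaks, each point a peak. HAAO stands highest of those shown with 191 fragments, and 3 in 4 peaks lie at or under 24 fragments. SP9, MIR183 and FKBP9, whose counts could not be recovered, are not shown.

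A handful of sites stood far above the rest. The highest fold, 154, belonged to SP9, which encodes an SP-family zinc finger factor of forebrain and limb development. It ranked 6 of all 6373 peaks. This peak spanned chromosome 2 from 174340005 to 174341301, 5059 bp downstream of the assigned start, with a q-value deposited as 0. A promoter peak of SP9 lay 1755 bp away, with a fold of 19.0. A fold of 20 was reached by 9 near intergenic peaks (3.57%), against 10.1% of all peaks, and a fold of 50 by 4 (1.59%), against 2.02% of all peaks.

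MIR183 came next with a fold of 66.7. It is the first gene of a microRNA cluster known from sensory organs and often raised in tumours. Its peak covered chromosome 7 from 129778175 to 129780591, 3161 bp upstream of the assigned start, and was the widest of the 252. The nearest other peak was 44104 bp away, and no promoter peak was assigned to MIR183.

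HAAO, which encodes an enzyme of tryptophan breakdown toward NAD, had a fold of 63.1 at 17116 bp upstream. The peak lay on chromosome 2 from 42809709 to 42810630. Its summit had 191 fragments over a background of 2.04, and the exact 95% Poisson limits on that count were 165 and 220. HAAO had no promoter peak, and its only other peak, at -64519 bp, had a fold of 4.20.

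FKBP9, a prolyl isomerase gene of the endoplasmic reticulum, had a fold of 53.3 on chromosome 7 from 32942109 to 32943468. Its summit lay inside the span of the pseudogene RP9P, and the promoter peak of FKBP9 had a fold of 6.37. ZNF629, a zinc finger gene, had 108 fragments (88.6 to 130) over 1.73, a fold of 39.9, at -18254 bp. Here the promoter peak was the higher, with a fold of 77.8.

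The fold then dropped to a group between 18.6 and 23.8. HHEX, a homeobox factor needed for liver formation, had 68 fragments (52.8 to 86.2) over 1.90 at 3667 bp downstream, a fold of 23.8. GTF2IRD1, a transcription factor gene of the Williams-Beuren region, had 59 fragments (44.9 to 76.1) and a fold of 23.5. The calmodulin-like gene CALML6 had 64 fragments (49.3 to 81.7) and a fold of 22.8, and its peak reached the RefSeq start of the long noncoding RNA gene LOC124903822. These 3 sites had overlapping counting intervals.

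GUCY2D, the guanylate cyclase gene of photoreceptors, had a fold of 22.3 at -12228 bp with 58 fragments (44.0 to 75.0). KLF9, a Krüppel-like factor induced by glucocorticoids, had a fold of 19.2 at -3400 bp with 53 fragments (39.7 to 69.3). CDKN2C, which encodes an inhibitor of cyclin D-dependent kinases, had a fold of 18.9 at 6539 bp with 49 fragments (36.3 to 64.8). YWHAZ, which encodes an adaptor that binds phosphorylated proteins, had a fold of 18.6 at 16298 bp with 53 fragments (39.7 to 69.3). The intervals of these 4 also overlapped one another, so their order is not resolved.

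**Figure D3:**
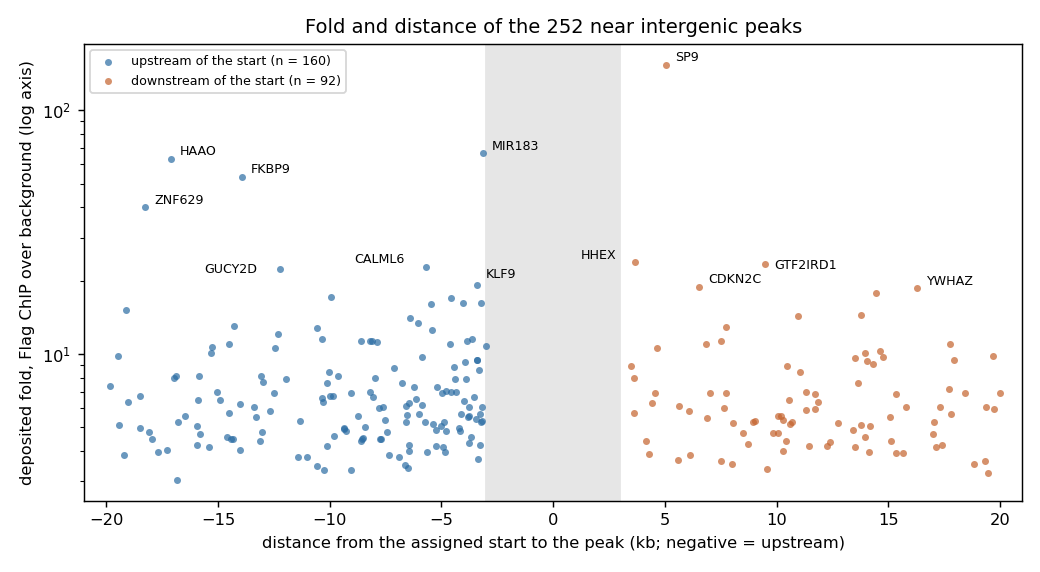
Deposited fold (log axis) against signed distance from the assigned start in kb for the 252 near intergenic peaks, each point a peak, with the 12 highest named. The grey band marks the 3 kb on either side of a start where peaks are classed as promoter, and 160 peaks lie upstream against 92 downstream.

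Most near intergenic peaks lay upstream of the assigned start. There were 160 upstream (63.5%, 57.2 to 69.4) and 92 downstream, whereas 43.7% (38.6 to 48.9) of far intergenic and 40.7% (36.9 to 44.5) of intron peaks lay upstream. Between 3 and 5 kb from the start, 41 were upstream and 9 downstream. From 5 to 10 kb there were 57 and 23, from 10 to 15 kb 34 and 36, and from 15 to 20 kb 28 and 24. By the definition of the class, a downstream site is intergenic only past the end of its transcript, so the rule limits which genes can have one. Position of the peaks and transcript length cannot be told apart in these shares. Median fold was 6.11 upstream and 5.87 downstream. By distance it was 6.79 from 3 to 5 kb, 5.63 from 5 to 10 kb, 6.0 from 10 to 15 kb and 5.79 from 15 to 20 kb. The quartiles of these bins overlapped throughout.

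The peaks nearest to a start were at CNR2 (fold 10.8, 3014 bp), MIR183 and ALPI (6.08, 3175 bp). Just inside 20 kb lay FERMT2 (6.89, 19973 bp), IPO7 (7.40, 19821 bp) and CFAP300 (5.92, 19714 bp). Just beyond it lay PLXND1 (5.08, 20129 bp), SMKR1 (4.72, 20176 bp) and ZNF213 (8.51, 20190 bp).

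A promoter peak at the assigned gene accompanied 102 of the 252 near intergenic peaks (40.5%, 34.4 to 46.8). The share over all peaks outside promoters was 34.8%. It was 25.6% (21.3 to 30.3) for far intergenic and 38.4% (34.7 to 42.3) for intron peaks, so the near intergenic interval overlapped that of intron peaks and not that of far ones. With all peaks under a −log10 q of 10 left out, promoter peaks included, it was 22.1% (14.2 to 31.8) of near intergenic peaks. It was then 23.5% of peaks outside promoters. That cut removed partner promoter peaks as well, so these shares cannot be set against those above. The median fold was 5.70 for the 102 near intergenic peaks with such a partner, against 6.08 for the 150 without one. Promoter peaks were matched by gene, so the partner can lie at another, distant start of the same gene. Among the 102, the highest promoter peak had a median fold of 8.23 (quartiles 5.63 to 14.3), and the near intergenic fold was the higher in 36 and the lower in 66. Spearman's rho between the folds of the 102 pairs was -0.0670.

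Counting error left most of these pairs unresolved. With exact Poisson intervals on the fragments and the background taken as fixed, the near intergenic site was above the promoter in 11 pairs, the promoter was above in 22 and the intervals overlapped in 63. In 6 pairs the counts could not be recovered. SP9 and FKBP9 are among those 6, with folds 8.08 and 8.36 times that of the promoter. The rest of the 6 had the higher fold at the promoter. They were ZNF629 (39.9 against 77.8), FAM89A (4.97 against 83.2), IGF2BP2 (4.49 against 69.6) and CYP2S1 (3.34 against 109).

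Clear excess over the promoter was found at ELOVL5, a fatty acid elongase gene, with a fragment ratio over background of 24.98 (18.6 to 32.8) at the near intergenic site and 5.78 (3.16 to 9.70) at the promoter. SPSB1, a ubiquitin ligase adaptor gene, had 24.8 (18.9 to 31.9) and 6.10 (3.15 to 10.6). IGF2BP3, an oncofetal RNA-binding protein gene, had 24.2 (17.7 to 32.2) and 9.14 (6.17 to 13.1). The other genes were TEX2, MPZL1, MARVELD3, ID1, RBAK-RBAKDN, NOC4L, PLEKHM3 and C2CD2. These 11 genes were named after their values were seen. At the opposite end, CYP2S1 had a near intergenic fold of 3.34 and a promoter fold of 109. Among the 11, SPSB1 had its site from 9370160 on chromosome 1 and its promoter peak from 9293033, at a different start. NOC4L had its site from 132168581 on chromosome 12, 17740 bp downstream of the assigned start. Its promoter peak, from 132144766, was also at a different start. The promoter peak of RBAK-RBAKDN lay 70481 bp from its site.

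**Figure D4:**
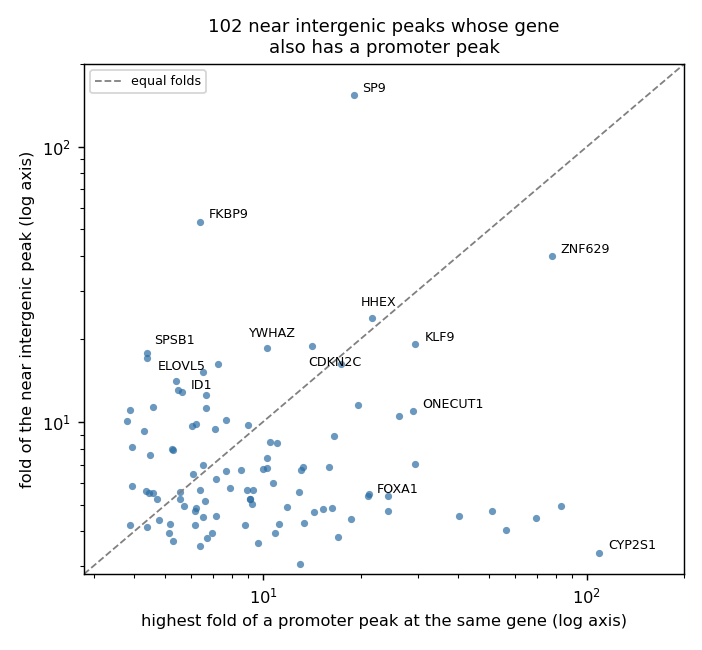
Fold of the near intergenic peak against the highest promoter fold of the same gene (both log axes) for 102 near intergenic peaks, each point a peak; the dashed line marks equal folds. SP9 and FKBP9 lie farthest above the line, CYP2S1 farthest below, and 36 of the 102 points are above it.

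Near intergenic peaks had a neighbour more often than other distal peaks and about as often as promoter peaks. Another peak lay within 10 kb of 69 of them (27.4%, 22.0 to 33.3), against 5.33% (3.29 to 8.12) of far intergenic and 13.5% (11.0 to 16.3) of intron peaks, with 24.0% (22.8 to 25.2) of promoter peaks and 21.9% over all peaks. Among peaks with a −log10 q of at least 10 it was 15.8% (9.12 to 24.7) of near intergenic peaks and 11.8% of all. Neighbours under that threshold were left out as well. Of the 69 nearest neighbours, 47 were promoter peaks and 15 intergenic. The median gap to the nearest other peak was 27.3 kb (quartiles 9.17 to 86.2), against 90.9 kb (39.2 to 235) for far intergenic peaks. The rule itself places these sites near starts, and its part in this closeness was not tested.

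A pair of near intergenic peaks was assigned to each of 8 genes. KLF9 had folds of 19.2 and 7.04 on either side of a 658 bp gap, and its promoter peak had 29.5. YWHAZ had 18.6 and 6.83 across 653 bp. The noncoding RNA gene LINC00350 had 9.32 and 9.72 across 287 bp, and ZNF213, a zinc finger gene, had 5.23 and 5.13 across 305 bp. DMBX1 had 8.13 and 6.48 across 602 bp. RFLNA, a filamin regulator, had 6.26 and 11.3. NHP2, a protein of the H/ACA ribonucleoprotein, had 4.20 and 3.77. The pair of TP53AIP1, an apoptosis gene of the p53 response, lay on opposite sides of its assigned starts, with 5.56 downstream and 10.6 upstream.

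Genes for developmental and liver transcription factors were among those assigned. The lists were drawn up with earlier results of these data known, so their counts are a description. Of 20056 protein-coding genes, 199 (0.992%) had a near intergenic peak. Of 76 developmental factor genes 4 had one, at SP9, PAX2, LHX2 and SNAI1. PAX2, a kidney factor, had 51 fragments (38.0 to 67.1) and a fold of 17.0 at -4593 bp, with no promoter peak. The forebrain factor LHX2 had a fold of 6.98 at -4370 bp and SNAI1, a repressor of epithelial genes, 5.56 at -16485 bp.

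Of 29 hepatocyte identity genes 3 had a near intergenic peak. A promoter peak was present at 14 of the 29 (48.3%), against 20.2% of all protein-coding genes. In the other lists that share ran from 15.8% of developmental factor genes to 65.7% of immediate early and stress genes. ONECUT1, a liver and pancreas factor, had 53 fragments (39.7 to 69.3) over 3.94 at -14528 bp, a fold of 10.9. A further ONECUT1 peak, in an exon, had 16.8, and its promoter peak 29.0. FOXA1, a pioneer factor of endoderm, had 16 fragments (9.15 to 26.0) over 2.16 and a fold of 5.37 at 10280 bp, while its promoter peak had 21.1. HNF4G, a nuclear receptor gene, had 4.25 at -3289 bp and 5.16 at its promoter. At all 3 genes the promoter fold was the higher, although at HNF4G the counting intervals overlapped. HHEX was not on this list. Its near intergenic fold of 23.8 stood beside 21.7 at its promoter, with overlapping intervals.

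Among immediate early and stress genes 2 of 35 had a near intergenic peak. ID1, which blocks basic helix-loop-helix factors, had 79 fragments (62.5 to 98.5) over 5.25, a fold of 12.8 at -10578 bp. HES1, a repressor induced by Notch, had 25 fragments (16.2 to 36.9) over 1.47, a fold of 10.5 at 4663 bp, and 26.3 at its promoter. HES1 was also the single member among 32 genes of KMT2A, its partners and Notch. CDKN2C was the single member among 40 cell cycle and replication genes. Liver cancer drivers and markers had 0 of 30, which allows a share of up to 10%. Macrophage-directed cytokines had 0 of 33, which allows up to 9.09%. Both limits are approximate, as 3 divided by the list size. No list was tested against the rest.

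Most assigned genes were protein-coding, at 206 of 252 peaks (81.7%, 76.4 to 86.3). The share was 68.8% (63.8 to 73.5) for far intergenic and 89.8% over all peaks. A long noncoding RNA gene was assigned to 32 peaks (median fold 5.92) and a microRNA gene to 12 (6.57). CEBPA-DT, transcribed divergently from the liver factor gene CEBPA, had the highest fold of the long noncoding RNAs. It had 56 fragments (42.3 to 72.7) over 2.95, a fold of 14.4, at 13757 bp downstream. The CEBPA promoter peak, 13049 bp away, had a fold of 11.0. LINC01398 (10.9), LINC00350 (9.72), HLA-F-AS1 (9.40) and LOC101927787 (7.60) followed.

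After MIR183, the microRNA genes with the highest folds were MIR550A2 (11.4 at -3842 bp), MIR23A (9.42 at -3416 bp), MIR5093 (8.91 at 3486 bp) and MIR132 (7.93 at 3617 bp). The MIR23A peak held 23 fragments (14.6 to 34.5) over 1.55, and a promoter peak of MIR23A, 594 bp away, had a fold of 7.13. The MIR132 peak held 21 fragments (13.0 to 32.1) over 1.77. Those of MIR23A and MIR132 are clustered genes, and the 3p mature products of each cluster are shown because they say which small RNAs such a site lies beside. The 5p products are left out here. They are RefSeq sequences (GRCh38.p14), 5′ to 3′, with the seed (bases 2 to 8), which pairs with target messages, in capitals.
hsa-miR-23a-3p: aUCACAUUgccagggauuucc
hsa-miR-27a-3p: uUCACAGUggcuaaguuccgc
hsa-miR-24-3p: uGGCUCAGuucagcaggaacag
hsa-miR-132-3p: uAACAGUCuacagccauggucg
hsa-miR-212-3p: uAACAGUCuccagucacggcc

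The 3p products of MIR132 and its neighbour MIR212 share the seed AACAGUC, while the 3p products printed for the MIR23A cluster have 3 different seeds. The MIR23A cluster is known as a regulator of blood cell differentiation, and MIR132 as a neuronal microRNA induced by CREB.

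Of the 56 summits inside RefSeq gene spans, 9 lay in pseudogenes (3.57% of near intergenic peaks, 1.65 to 6.67), against 22 far intergenic (5.87%, 3.71 to 8.75) and 3 intron summits (0.450%, 0.0930 to 1.31). Of the 9 near intergenic summits, 4 had a fold of at least 10, against 3 of the 22 far intergenic ones and 27.6% of all peaks. The 4 were FKBP9 in RP9P, MIR550A2 in ZNRF2P1, RBAK-RBAKDN in RNF216P1 (11.3) and LINC01398 in FAAHP1. Reads from a pseudogene can be placed at its parent gene or the reverse, so the folds at these sites are uncertain. How the reads were placed was not tested.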

How the data were processed

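Bowtie2 2.4.1, SAMtools, MACS2 2.2.7.1, deepTools 3.5.0 and the build hg38 are named, per the submitters' processing notes, with no role or order. The authors deposited for each peak a fold (a ratio over background) and a p-value and q-value, with an annotation and a distance to a start; the files used here state no read total, so library depth is unknown. The near intergenic peaks came from the full peak table; the other deposited tables hold none of them.

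From these values the fragments and the background at each summit were recovered as the whole count that gives both the deposited fold and p-value under a Poisson model (1 added to each side of the ratio), to within 0.001 on the −log10 p scale. This worked for 249 of 252 near intergenic peaks and 6293 of 6302 peaks with p above 0, and for 479 of 479 simulated peaks. The simulated peaks check the calculation only, not whether the deposited values follow this model. Shares have exact Clopper-Pearson intervals, medians order-statistic intervals and fragments exact Poisson intervals, all 95%. The Poisson intervals cover counting error only, and the others treat the peaks of 1 library as independent draws. Lists with no member have instead an approximate upper limit of 3 divided by the list size. No test between conditions is possible with 1 library of each kind. Promoter windows and gene spans came from RefSeq tables of GRCh38.p14, whose windows leave out chromosome 8, so the 11 near intergenic peaks there were not analysed for RefSeq starts.

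Members and lists were chosen with earlier results of these data known. Named genes were the 12 highest folds, the 3 widest peaks, the 3 nearest to and the 3 at either side of the 20 kb limit, genes with a pair of peaks, the 5 highest microRNA and 5 highest long noncoding RNA genes, and list members. Genes at RefSeq windows and pseudogenes, and those named for their fold against the promoter, were chosen after their values were seen. Alternatives changed the thresholds, the distance limit, the neighbour gap and the signal measure. Python 3.11.15, numpy 2.4.6, pandas 2.3.3, scipy 1.17.1 and matplotlib 3.10.9 were used.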

Additional observations from a re-analysis of the deposited data

How the results depend on the processing

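Of 68 alternative values for 9 results, 43 stayed inside the interval of the value reported and 25 did not. Keeping only peaks with a −log10 q of at least 10 left fewer and stronger peaks. The median fold was then 9.80 and the median width 529 bp, with 2.99% of peaks near intergenic, 69.5% upstream, 22.1% with a promoter peak, 86.3% protein-coding, 15.8% with a neighbour within 10 kb and 49.5% with a fold of at least 10. Keeping only peaks with a fold of at least 5 gave 6.98, 462 bp, 54.9% with a −log10 q of at least 10, 31.8% with a promoter peak and 27.2% with a fold of at least 10. A distance limit of 10 kb gave 2.04% of peaks, 75.4% upstream and 38.5% with a neighbour, and 50 kb gave 6.90% and 18.4%. Counting neighbours within 20 kb gave 45.6%, and within 5 kb 14.7%. A fold threshold of 8 gave 27.8%, a −log10 q threshold of 5 gave 72.6%, and promoter peaks of fold at least 5 gave 34.1%. Recovered fragments over background gave a median of 8.37, since the deposited fold adds a pseudocount. Leaving out summits in RefSeq gene spans, chosen after seeing the data, gave 3.08%. Shares counted at a changed threshold or gap moved by definition. So did fold after a fold filter, and the share of peaks under a changed distance limit or with summits left out. The filters on q and fold also removed promoter and neighbouring peaks. The shares with a promoter peak or a neighbour thus counted fewer partners by construction. The size of that part and the cause of the remaining shifts were not tested. No paired analysis was possible because there is 1 Flag ChIP and 1 input library.

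With a median of 17 fragments at the summit, differences in rank among most near intergenic peaks lie within counting error. No library was replicated, so variation between cultures was not measured.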

Other observations

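By chromosome, as a description with no test, chromosome 7 had 22 near intergenic peaks of 318 (6.92%, 4.39 to 10.3) and chromosome 14 held 14 of 203 (6.90%, 3.82 to 11.3), while chromosome X held 1 of 120 (0.833%, 0.0211 to 4.56). These were picked as the highest and lowest shares of 23 chromosomes after the values were seen. The share over all chromosomes was 3.95%, inside the intervals of chromosomes 14 and X.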
